A study of Mus musculus with 4 samples.

Results

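A set of 37 genes for the synthesis, desaturation, elongation, esterification and oxidation of fatty acids was followed in mouse embryonic stem cells (ESCs) given lactate. The genes were listed by symbol for their roles, with earlier results of these data known, and they are 37 of the 55335 genes counted. RNA was measured by RNA-seq in the ESC line AB2.2, with 2 control libraries and 2 libraries from cells kept in 50 mM lactate for 24 h. Per the labels, the cells of all 4 libraries grew on mouse embryonic fibroblast feeder cells, in medium with fetal bovine serum at 15%, the cytokine LIF at 1000 U/ml, 3 μM CHIR99021 (an inhibitor of GSK3) and 1 μM PD0325901 (an inhibitor of MEK), so every value holds for this medium and for 1 cell line. The RNA was taken from whole cultures, and the labels name no step that removed the feeders. The question for these genes was whether lactate changed the RNA of the enzymes that make fatty acids, of those that burn them, or of both.

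Cells make fatty acids in the cytosol from acetyl-CoA, which is carboxylated to malonyl-CoA and built into palmitate, and the product is then elongated, desaturated and joined to glycerol. Oxidation runs the other way in mitochondria, where acyl chains enter through the carnitine shuttle and are shortened to acetyl-CoA. The transcription factor SREBP1, the product of Srebf1, is known to drive the synthesis genes, and malonyl-CoA is known to hold back the carnitine shuttle, so that both directions seldom run together.

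In lactate, Fasn and Scd2 fell to an estimated 45.5% and 45.2% of control, with 95% intervals reaching to 58.2% and 56.9%, and Elovl4 rose. No gene of the carnitine shuttle or of beta-oxidation passed the test, in a fit without a term for the replicate number. The test was edgeR's quasi-likelihood test over all genes, and a gene is called here at an adjusted p under 0.05 with a change of over 2-fold. With a replicate term added, Slc25a20, Acadm, Acadl, Acadvl and Hadha had an adjusted p under 0.05, but each changed less than 2-fold. Of the 37 genes 36 were tested, and 1 was called higher and 2 lower. Over all 18661 genes tested, 103 (0.552%) were called higher and 65 (0.348%) lower, and 108 and 40 when libraries were scaled by their totals alone. At an unadjusted p under 0.05 there were 5 of the 36 genes higher and 8 lower, beside 11.7% and 11.4% of all genes tested. CPM here are the reads scaled to library size times the TMM factor that edgeR gives each library. These factors were 0.959 and 0.996 in control and 1.004 and 1.043 in lactate. In 9 of the 36 genes both lactate libraries were above both control libraries in CPM, and in 11 both were below. The same held for 27.0% and 25.9% of all genes tested, so these shares were close to the background. With libraries scaled by their totals alone the counts for the 36 genes were 10 and 10. The median log2 fold change of the 36 genes was 0.03 and that of all genes tested was 0.01. Nothing in the labels says that the libraries of a group came from separate cultures. The p-values set the difference between groups against the spread between these libraries, which edgeR estimates partly from all genes tested. That spread may be technical, and a permutation test of 2 against 2 libraries cannot give a p below 0.33.

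**Figure D1:**
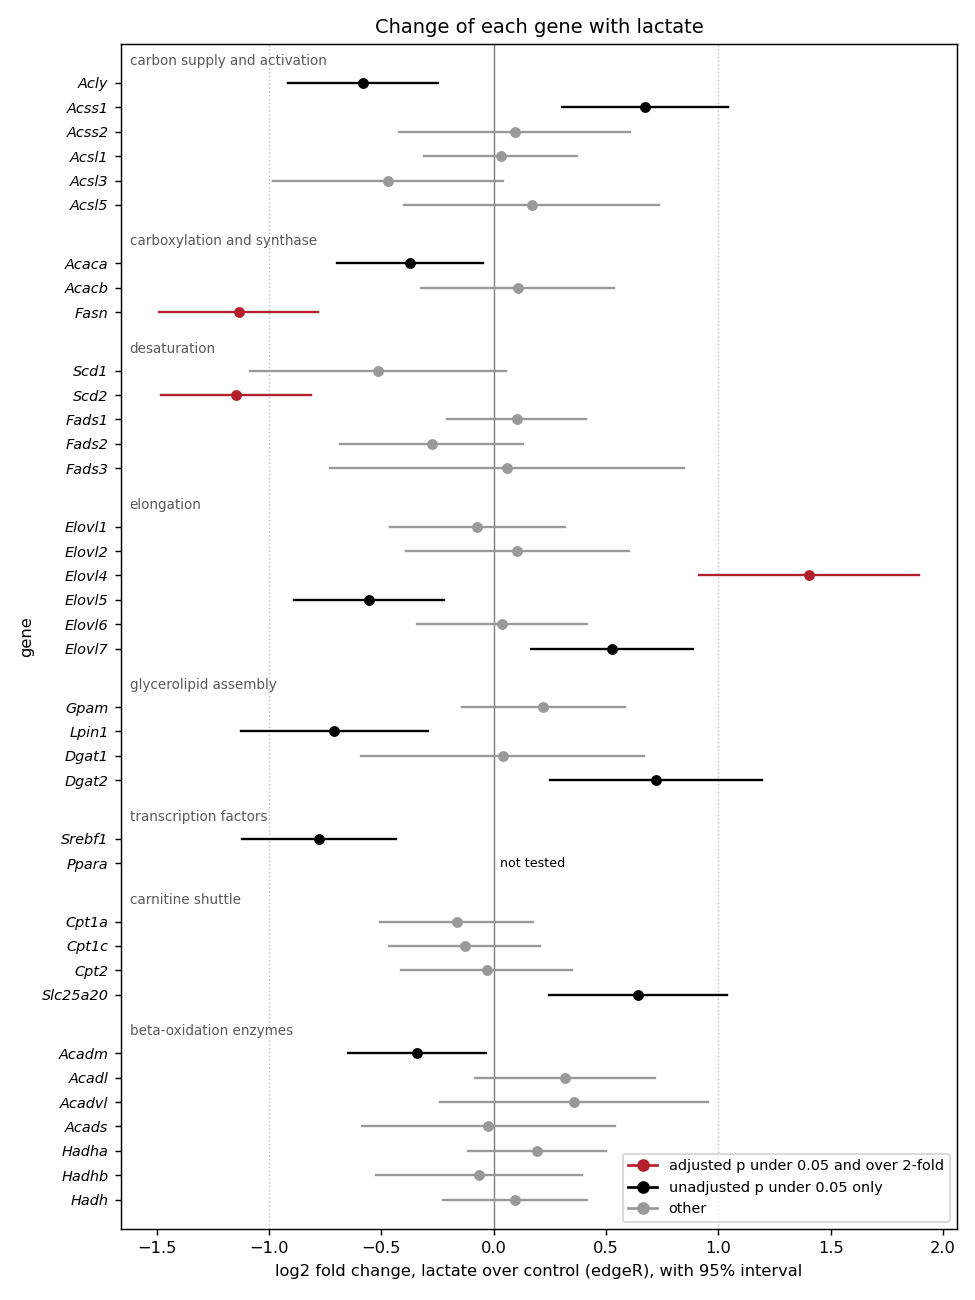
Log2 fold change in lactate over control for the 36 genes tested, by role, with its 95% interval from edgeR. Fasn and Scd2 lie left of -1 and Elovl4 right of 1 as the only called genes, the genes in black have an unadjusted p under 0.05 only, and Ppara was not tested.

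The libraries held between 18067562 and 19077885 reads in genes. Of these reads, mitochondrial genes took 5.48% in replicate 1 and 2.43% in replicate 2 of control, against 5.72% in replicate 1 and 2.82% in replicate 2 of lactate, so this share went with the replicate number and not with lactate. All 10 ESC markers were tested and none was called, with 3 higher and 1 lower at an unadjusted p under 0.05. By log2 fold change these were Sox2 (0.56), Zfp42 (0.52), Klf4 (0.39) and Utf1 (-0.54). The 12 feeder fibroblast markers summed to 436 and 629 CPM in control and 438 and 493 CPM in lactate, so the groups overlapped. These sums describe mainly Col1a1 (194 and 294 CPM in control, 199 and 230 in lactate) and Col1a2 (99.0 and 163, then 73.8 and 104). Of the 11 feeder markers that were tested none was called. Col3a1 (log2 fold change -0.90) and Prrx1 (-0.57) were lower and Pdgfrb (0.56) higher at an unadjusted p under 0.05. Markers of adipocytes and liver-like cells summed to at most 1.11 CPM in any library, with Adipoq at 0 reads in all 4. In RNA from whole cultures, fewer cells of a type and less RNA per cell cannot be told apart, and the part of the feeders in the results was not tested.

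The promoters of 4 of the genes are printed here as examples. Those of Fasn, Elovl5 and Srebf1 come from genes with both lactate libraries below both controls. The same was true of Acly, Acaca, Acsl3, Lpin1, Cpt1a and Acadm, whose promoters are not printed, so the examples do not stand for the lowered genes. That of Acsl1 was picked because it holds the set's only match to the sterol element. Each is the 250 bases before a transcription start that RefSeq gives on GRCm38.p6, written in the direction of transcription, and the capitals mark the motif matches on either strand.

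Fasn, chr11:120824548-120824797, minus strand: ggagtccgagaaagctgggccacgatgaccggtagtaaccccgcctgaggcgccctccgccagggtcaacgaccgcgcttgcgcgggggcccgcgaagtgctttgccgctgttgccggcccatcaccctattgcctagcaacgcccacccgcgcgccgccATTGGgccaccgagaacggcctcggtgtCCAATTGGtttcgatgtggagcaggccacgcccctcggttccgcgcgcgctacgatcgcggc

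Elovl5, chr9:77917115-77917364, plus strand: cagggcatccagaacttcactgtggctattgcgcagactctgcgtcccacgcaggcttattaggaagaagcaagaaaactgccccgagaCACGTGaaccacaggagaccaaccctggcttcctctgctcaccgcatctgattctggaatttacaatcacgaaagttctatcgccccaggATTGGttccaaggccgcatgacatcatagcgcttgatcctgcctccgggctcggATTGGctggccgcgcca

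Srebf1, chr11:60222582-60222831, minus strand: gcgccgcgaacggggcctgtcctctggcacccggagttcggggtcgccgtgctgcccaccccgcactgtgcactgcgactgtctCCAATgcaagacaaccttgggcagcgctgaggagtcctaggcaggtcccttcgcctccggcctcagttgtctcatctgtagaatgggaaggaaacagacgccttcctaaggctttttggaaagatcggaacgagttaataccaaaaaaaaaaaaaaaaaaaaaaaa

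Acsl1, chr8:46490716-46490965, plus strand: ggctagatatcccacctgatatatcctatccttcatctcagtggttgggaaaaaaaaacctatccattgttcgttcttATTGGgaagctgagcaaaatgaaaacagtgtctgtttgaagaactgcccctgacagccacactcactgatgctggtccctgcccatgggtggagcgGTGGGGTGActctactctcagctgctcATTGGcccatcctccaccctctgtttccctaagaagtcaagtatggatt

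The Fasn stretch has 3 CCAAT boxes, the letters CCAAT or their reverse complement, starting 90, 62 and 59 bases before the start, and the last pair overlaps. The Elovl5 stretch has CCAAT boxes at 71 and 17 bases and an E-box, CACGTG, at 161 bases before the start. The Srebf1 stretch lies before the outermost of the 3 starts listed for that gene, the only one of the 3 whose first bases are in a GENCODE transcript of the gene, and has 1 CCAAT box at 166 bases. The innermost start has a CCAAT box at 30 bases, and the one between them has no match. The Acsl1 stretch has the only match to the sterol regulatory element TCACNCCAC among these genes, at 76 bases, with CCAAT boxes at 172 and 49 bases. It lies inside the gene, and the other Acsl1 promoter, directly before the gene start at 46471037, has no match. RefSeq promoters were at hand for 32 of the 37 genes, as 38 promoters, and were searched on both strands over 300 bases, the 250 before and the 50 after the start.

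A CCAAT box was in 17 of the 38 promoters (44.7%), of 16 genes, and in 37.4% of all 32851 promoters. Among the unprinted genes lower in both lactate libraries, Acaca, Lpin1 and Acadm had no match to any of the motifs. The Acaca promoter searched, from 84195188, lies inside the gene, whose GENCODE start is at 84129672. The stretch before that GENCODE start was not searched. Acly had a CCAAT box only after the start, and Acsl3 and Cpt1a had one before it. The E-box was in 2 of the 38, those of Elovl4 and Elovl5, and in 7.15% of all. In Elovl4, the gene that was called higher, both its E-box and its CCAAT box lie after the RefSeq start, at 5 and 25 bases. The stretch before that start holds none of these motifs. However, the first bases after that start are not in a GENCODE transcript of Elovl4, whose GENCODE start lies further in, at 83806277. Relative to the GENCODE start the motifs lie elsewhere, and the stretch before it was not searched as such. The sterol regulatory element was in 1 of the 38 and in 1.24% of all, and the ATF4 element TGATGNAA was in 1, that of Gpam, and in 3.97% of all. These are matches of letters, not binding sites, and the shares among these genes come from few promoters. Promoters of Scd1, Scd2, Fads1, Dgat1 and Dgat2 were not used here.

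The level of a gene relative to another was read in FPKM, the authors' RSEM value per kilobase of transcript and scaled to the mapped fragments. In control, Scd2 was the most abundant of the genes, at 199.5 and 190.4 FPKM in replicates 1 and 2, above every other gene of the set in both libraries. Fasn (mean 147 FPKM), Acadm (147) and Acly (146) came next and overlapped. The lowest of the genes tested was Elovl4, at a mean of 1.47 FPKM. In lactate, Scd2 stood at 87.2 and 93.3 FPKM, overlapping with Acadm (118 and 90.6 FPKM) and below Acly (105 and 107 FPKM).

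**Figure D2:**
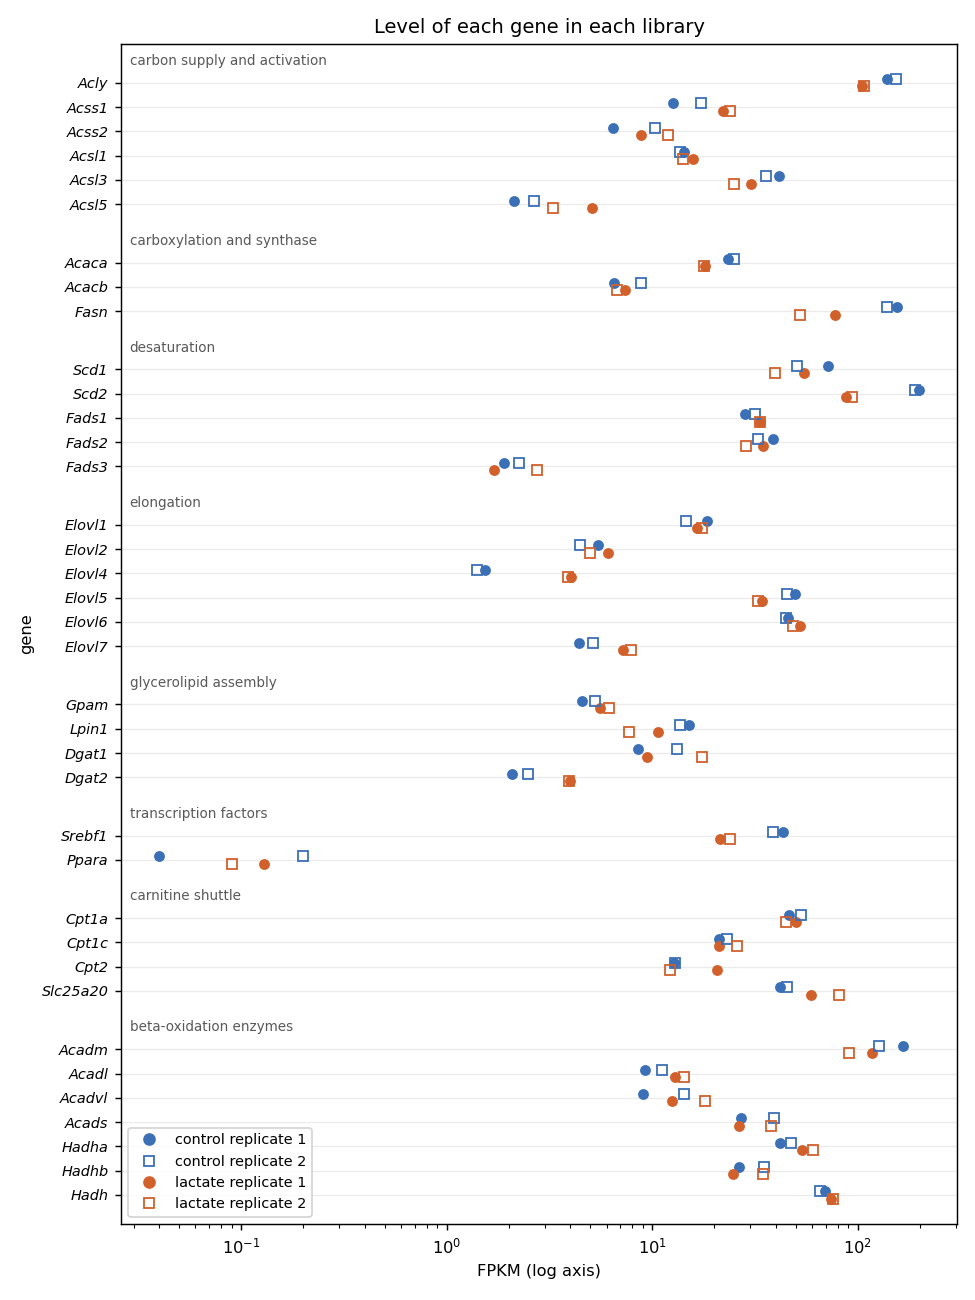
Level of all 37 genes in the 4 libraries, in FPKM on a log axis, by role, with control in blue, lactate in orange, replicate 1 as filled circles and replicate 2 as open squares. Scd2 and Fasn lie further right in control than in lactate with no overlap, Elovl4 lies further right in lactate, and Ppara is at or below 0.20 FPKM in every library.

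The genes that supply and activate carbon were mixed, and none of the 6 was called. Acly, ATP citrate lyase, makes cytosolic acetyl-CoA from citrate, and it was at 536 and 565 CPM in control and 383 and 353 CPM in lactate. Both lactate libraries were below both control libraries, and the level in lactate was 66.8% of control (95% interval 53.0 to 84.2%), with an adjusted p of 0.0841. Acss1 makes acetyl-CoA from acetate in mitochondria and was at 39.3 and 45.3 CPM in control and 62.1 and 72.8 CPM in lactate. Its groups did not overlap either, with lactate at 160% of control (124 to 206%), but the adjusted p was 0.0771. Acss2, which does the same in the cytosol and nucleus, was at 28.4 and 40.4 CPM in control and 32.9 and 40.5 CPM in lactate. These groups overlapped, and the log2 fold change was 0.09 (95% interval -0.42 to 0.61). In FPKM the ratio of Acss1 to Acss2 was 1.97 and 1.68 in control and 2.49 and 2.003 in lactate. Of the long-chain acyl-CoA synthetases, Acsl3 had a log2 fold change of -0.47 (unadjusted p = 0.0663), Acsl5 of 0.17 and Acsl1 of 0.03. The sterol element match is in the inner of the Acsl1 promoters, and the counts do not separate the transcripts from its starts.

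Of the carboxylases and the synthase that build palmitate, Fasn fell and neither Acaca nor Acacb was called. Fatty acid synthase (ENSMUSG00000025153.9, chromosome 11, 120805846 to 120824547, minus strand on GRCm38) joins acetyl-CoA and malonyl-CoA into palmitate. It was at 619 and 712 CPM in control and 305 and 301 CPM in lactate, from between 5674 and 13512 reads. Both lactate libraries lay far below both controls, and the means were 666 ± 65.6 and 303 ± 2.96 CPM (SD, n = 2). The log2 fold change was -1.14 with a standard error of 0.15 and an edgeR adjusted p of 0.0406, which is 45.5% of control (95% interval 35.6 to 58.2%). In FPKM the lactate libraries were further apart, at 77.8 and 52.5, against 156 and 138 in control. No 50-base stretch of its longest transcript was shared with another gene.

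Acaca, acetyl-CoA carboxylase, makes the malonyl-CoA for this step and was at 132 and 123 CPM in control and 104 and 92.7 CPM in lactate. The groups did not overlap, with lactate at 77.2% of control (95% interval 61.6 to 96.8%), but the adjusted p was 0.174. Of its 50-base stretches 52.6% were also in the processed pseudogene Gm5182, which had 142 to 195 reads where Acaca had 1829 to 2342, so its reads are uncertain to that extent. Acacb, the carboxylase of the mitochondrial surface, had a log2 fold change of 0.11 (-0.32 to 0.54) and overlapping groups. The ratio of Fasn to Acaca in FPKM was 6.67 and 5.53 in control and 4.32 and 2.93 in lactate, lower in both lactate libraries.

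Among the desaturases, Scd2 fell, and neither Scd1 nor any of the 3 Fads genes was called. Scd2 (ENSMUSG00000025203.6, chromosome 19, 44293674 to 44306864, plus strand) is a stearoyl-CoA desaturase, which puts the first double bond into saturated acyl chains. It was at 913 and 882 CPM in control and 400.0 and 410.5 CPM in lactate, and no library of one group came near the other. The means were 897 ± 22.3 and 405 ± 7.44 CPM (SD, n = 2). The log2 fold change was -1.15 with a standard error of 0.14 and an edgeR adjusted p of 0.0406, which is 45.2% of control (95% interval 35.8 to 56.9%). The microRNA gene Mir5114 shares 61 bases with an exon of Scd2 on the same strand. The reads counted for it were 847 and 758 in control and 368 and 374 in lactate. Reads of Scd2 RNA can fall on these bases, and whether those counted came from Scd2 was not tested.

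Scd1, the neighbouring desaturase gene with the same reaction, was at 319 and 223 CPM in control and 221 and 159 CPM in lactate. Lactate replicate 1 was just under control replicate 2, so the groups were separate by a margin smaller than the gap within each. The log2 fold change was -0.51 with an adjusted p of 0.256 and a 95% interval of -1.08 to 0.06, and whether Scd1 and Scd2 differed in their change was not tested. Of the 50-base stretches of Scd1, 3.03% were shared with Scd2, so few reads can be split between the pair. The ratio of Scd2 to Scd1 in FPKM was 2.77 and 3.76 in control and 1.59 and 2.37 in lactate. Together the pair took 1232 and 1105 CPM in control and 621 and 569 CPM in lactate, or 50.9% of control.

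Fads2, which starts the desaturation of essential fatty acids, was at 111 and 90.6 CPM in control and 91.5 and 75.4 CPM in lactate. The groups overlapped, and the 95% interval of the log2 fold change was -0.68 to 0.13. Fads1, which acts later in the same path, had a log2 fold change of 0.10 (-0.21 to 0.41), and Fads3 of 0.06 (-0.73 to 0.85) at under 8 CPM in each library.

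Of the 6 elongases Elovl4 rose and no other was called, while Elovl5 was below and Elovl7 above control in both lactate libraries. Elovl4 (ENSMUSG00000032262.13, chromosome 9, 83778692 to 83806277, minus strand) makes very long chain fatty acids and is known from the retina, skin and brain. It had 81 and 75 reads in control and 225 and 212 reads in lactate, which is 4.68 and 3.95 CPM against 12.1 and 10.8 CPM. Both lactate libraries were over 2-fold above both controls, from a low level. The log2 fold change was 1.40 with a standard error of 0.20 and an edgeR adjusted p of 0.0467, which is 265% of control (95% interval 189 to 371%).

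Elovl5, an elongase of polyunsaturated chains, was at 127 and 111 CPM in control and 84.0 and 78.4 CPM in lactate. The groups did not overlap, with lactate at 68.1% of control (95% interval 54.0 to 85.7%) and an adjusted p of 0.0927. Elovl7, which extends saturated chains, was at 17.0 and 17.2 CPM in control and 24.8 and 24.5 CPM in lactate. Its libraries agreed closely within each group, with lactate at 144% of control (112 to 185%) and an adjusted p of 0.115. Elovl6, which extends palmitate itself, was at 279 and 239.7 CPM in control and 288 and 245 CPM in lactate. These groups overlapped, and the log2 fold change of 0.04 had a 95% interval of -0.34 to 0.42. Elovl1 and Elovl2 had log2 fold changes of -0.07 and 0.11 with overlapping groups.

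Set side by side in FPKM, Elovl6 stood at 0.927 and 0.989 times the level of Elovl5 in control and at 1.55 and 1.48 times in lactate. These 2 elongases were thus nearly level in control, and Elovl6 was above Elovl5 in both lactate libraries. Elovl4 went from 0.0313 and 0.0311 times the level of Elovl5 to 0.118 and 0.119 times. The 6 elongases together summed to 468 and 406 CPM in control and 448 and 394 CPM in lactate, with overlapping groups.

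**Figure D3:**
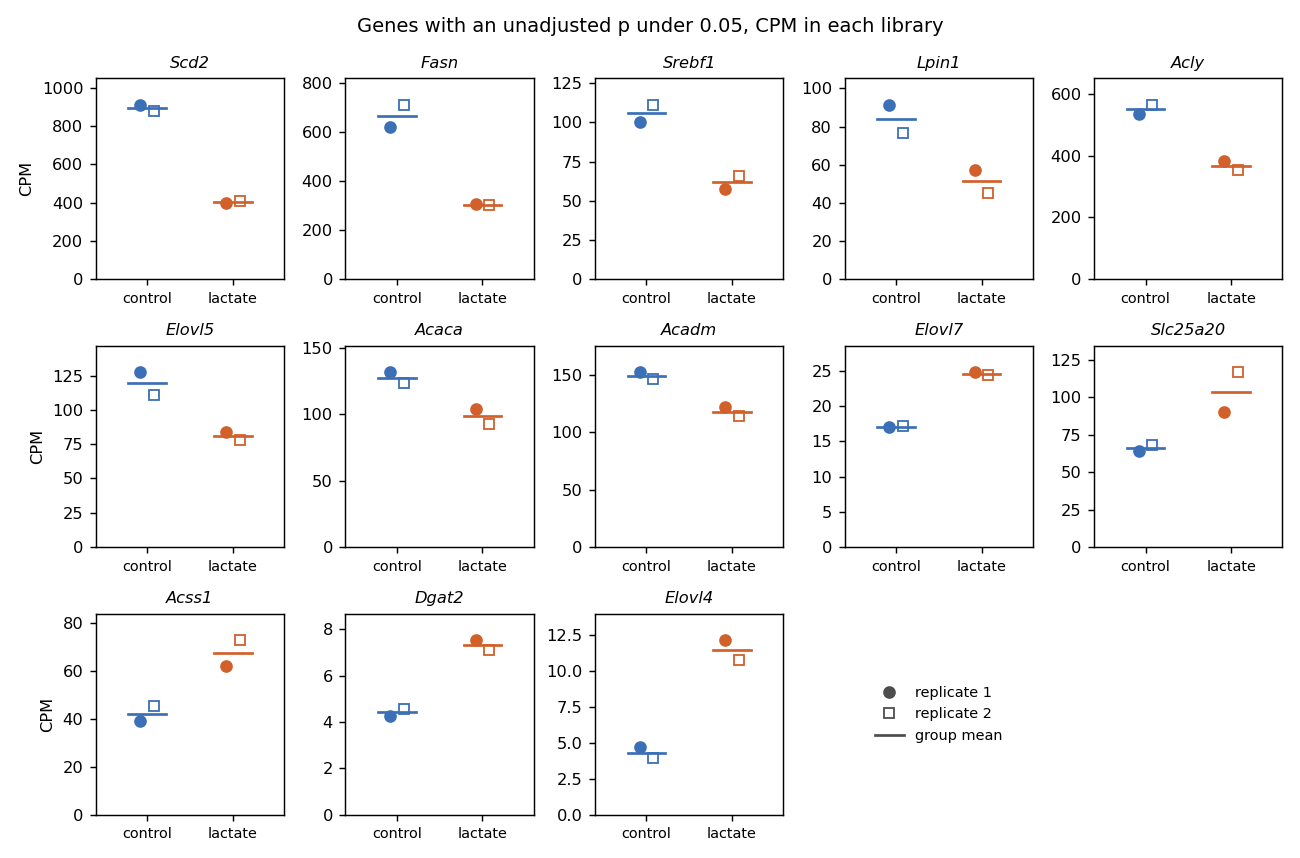
CPM in each library of the 13 genes with an unadjusted p under 0.05, with filled circles for replicate 1, open squares for replicate 2 and a bar for the group mean; each axis starts at 0. The 8 genes from Scd2 to Acadm are lower in both lactate libraries than in both controls, and the 5 from Elovl7 to Elovl4 are higher.

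None of the 4 genes that join fatty acids to glycerol was called. Lpin1, a phosphatidate phosphatase that makes diacylglycerol and also acts as a transcriptional coregulator, was at 91.5 and 76.5 CPM in control and 57.4 and 45.4 CPM in lactate. The groups did not overlap, with lactate at 61.2% of control (95% interval 45.8 to 81.7%) and an adjusted p of 0.0889. Dgat2, which adds the last acyl chain to make triacylglycerol, had 74 and 87 reads in control and 140 and 140 reads in lactate. The groups were separate, with lactate at 165% of control (119 to 229%) and an adjusted p of 0.108. Dgat1, which catalyses the same step, had a log2 fold change of 0.04 (-0.59 to 0.67) and overlapping groups. Gpam, the mitochondrial acyltransferase that starts glycerolipid synthesis, was at 24.7 and 27.9 CPM in control and 29.7 and 31.6 CPM in lactate. Lactate was above control in both libraries, but the log2 fold change of 0.22 (-0.14 to 0.58) did not pass the test.

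Neither of the 2 transcription factors was called, and Ppara was hardly measured. Srebf1 was at 100.4 and 111 CPM in control and 57.7 and 65.9 CPM in lactate. The groups did not overlap, and lactate was at 58.4% of control (95% interval 46.1 to 73.9%) with an adjusted p of 0.0578, so neither the adjusted p nor the fold passed the threshold. The counts do not separate the transcripts from its 3 starts. Ppara, the receptor that drives oxidation genes in liver, had 2 and 13 reads in control and 8 and 5 reads in lactate, and was not tested.

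The carnitine shuttle and the oxidation enzymes held no called gene. Cpt1a, the outer-membrane carnitine palmitoyltransferase that limits the entry of acyl chains, was at 186.7 and 209 CPM in control and 186.5 and 166 CPM in lactate. Lactate replicate 1 was level with control replicate 1, and the log2 fold change of -0.17 had a 95% interval of -0.51 to 0.18. Slc25a20, the carrier that takes acylcarnitines across the inner membrane, was at 64.3 and 67.9 CPM in control and 89.8 and 117 CPM in lactate. Both lactate libraries were higher, at 156% of control (119 to 206%), and differed more from each other than the controls did, and the adjusted p was 0.0965. Cpt2, which acts inside that membrane, had a log2 fold change of -0.03 (-0.41 to 0.35), and Cpt1c, an isoform best known from brain, of -0.13 (-0.46 to 0.21).

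Acadm, the acyl-CoA dehydrogenase for chains of medium length, was at 152 and 147 CPM in control and 122 and 114 CPM in lactate. The groups did not overlap, with lactate at 79.0% of control (95% interval 63.8 to 97.8%) and an adjusted p of 0.182. Hadha, a subunit of the trifunctional protein that works on long chains, was at 133 and 126 CPM in control and 145 and 151 CPM in lactate. Both lactate libraries were higher, but the log2 fold change of 0.19 (-0.11 to 0.50) did not pass the test, and Hadhb, its partner subunit, was at -0.06 (-0.52 to 0.39). Of the other dehydrogenases, Acadl was at 0.32, Acadvl at 0.36, Hadh at 0.10 and Acads at -0.02, with unadjusted p from 0.103 to 0.92. Exons of Acadvl share 42.9% of their bases with Dvl2 on the opposite strand, and whether the counting used strand is not given in the sources used here. The 7 oxidation enzymes summed to 519 and 531 CPM in control and 512 and 541 CPM in lactate, so the sums overlapped.

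All 37 genes together took 4539 and 4502 CPM in control and 3360.5 and 3230.0 CPM in lactate, or 72.9% of control. Without Acly, Fasn and Scd2 the sum was 92.2% of control, and these 3 genes alone were at 50.9%. The desaturase genes summed to 1435 and 1299 CPM in control and 818 and 749 CPM in lactate, and the carboxylases with Fasn to 781 and 874 CPM and 445 and 432 CPM. The sums thus describe mainly the abundant genes, while the median over genes was near 0.

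Wider lists of lipid genes were described in the same way. Of 24 genes that control sterol and lipid transcription 22 were tested, with 0 called higher and 1 lower, 1 higher and 6 lower at an unadjusted p under 0.05, and a median log2 fold change of -0.13. In 2 of these 22 both lactate libraries were above both controls in CPM and in 11 both were below, beside 27.0% and 25.9% of all genes tested. The called gene was Insig1, which holds the SREBP precursors in the endoplasmic reticulum and is itself a target of SREBP. It was at 92.5 and 103 CPM in control and 34.8 and 31.8 CPM in lactate. Both lactate libraries were far below the controls, with a log2 fold change of -1.56, a standard error of 0.14 and an edgeR adjusted p of 0.0312.

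Of 17 genes for fatty acid uptake and binding 13 were tested, with 1 called higher and 0 lower, 2 in each direction at an unadjusted p under 0.05, and a median of 0.07. The called gene was Vldlr, a receptor that takes up lipoprotein. It had 119 and 108 reads in control and 405 and 415 reads in lactate. The libraries agreed within each group, and the log2 fold change was 1.77 with a standard error of 0.18 and an edgeR adjusted p of 0.032.

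No gene of the other 3 lists was called. Of 23 further genes of fatty acid synthesis and elongation 19 were tested, with 4 higher and 0 lower at an unadjusted p under 0.05 and a median of 0.13. The 4 were Acsf3 (0.74) and Cbr4 (0.53) of mitochondrial fatty acid synthesis and the dehydratase genes Hacd2 (0.48) and Hacd4 (0.50), given as log2 fold changes. Of 24 further glycerolipid and lipid droplet genes 22 were tested, with 4 higher and 3 lower and a median of 0.16. Those with the smallest p were Gpat3 (15 and 11 reads in control, 49 and 39 in lactate), Mogat2 (26 and 25, then 56 and 67), G0s2 (3 and 20, then 65 and 87) and Lipe, the hormone-sensitive lipase (213 and 224, then 135 and 124). The first 3 came from few reads, and G0s2 also differed between the control libraries.

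Of 32 further genes of mitochondrial and peroxisomal oxidation 31 were tested, with a median of 0.06. Cpt1b, the muscle form of the outer-membrane transferase, had 54 and 81 reads in control and 134 and 139 in lactate, with a log2 fold change of 0.94 and an edgeR adjusted p of 0.0903. The counts of the other lists at an unadjusted p under 0.05 stand beside 11.7% of all genes higher and 11.4% lower.

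**Figure D4:**
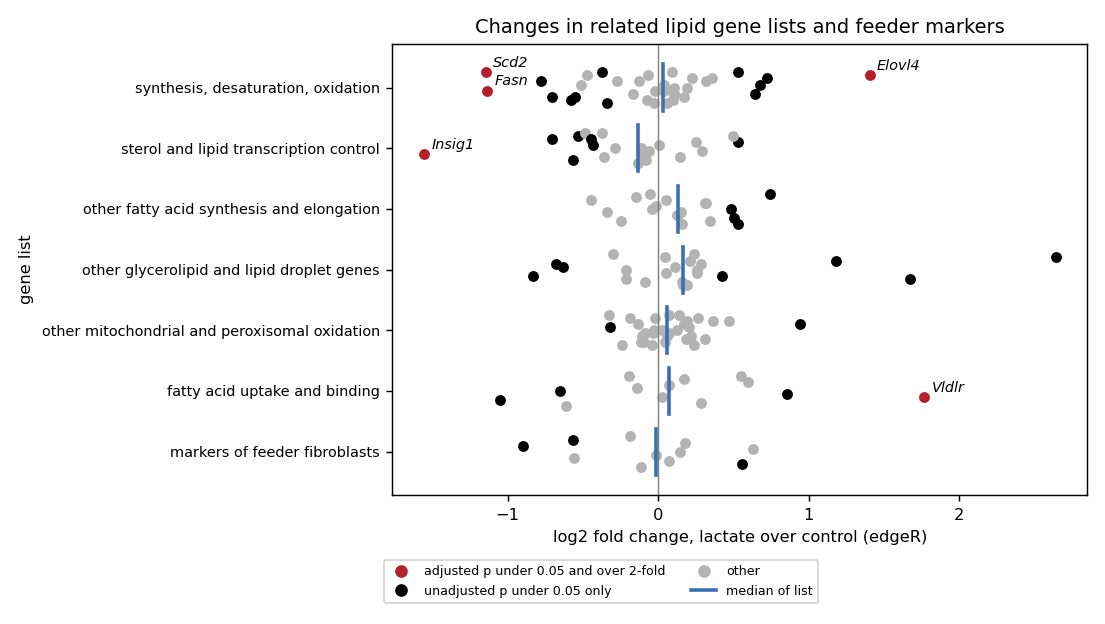
Log2 fold change in lactate over control of each gene tested in the 37-gene set, in 5 wider lipid lists and in the feeder markers, each point 1 gene and the blue line the median of its list. Called genes are in red and named, with Insig1 at -1.56 and Vldlr at 1.77 beside Fasn, Scd2 and Elovl4, and the medians lie between -0.13 and 0.16.

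The 3 calls were close to the threshold. With the RSEM expected counts in place of the read counts the log2 fold changes were -1.15 for Fasn, -1.17 for Scd2 and 1.29 for Elovl4, with adjusted p of 0.0525, 0.0515 and 0.0645, so that none was called. Without control replicate 1, Scd2 (adjusted p = 0.072) and Elovl4 (0.0799) were no longer called, and Fasn kept its call at 0.0496. Over the 13 alternatives the adjusted p ran from 1.15e-10 to 0.243 for Fasn, from 3.82e-11 to 0.219 for Scd2 and from 2.15e-07 to 0.241 for Elovl4, with the same direction in each.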

How the data were processed

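RNA was measured in 2 control and 2 lactate libraries of AB2.2 ESCs. Per the labels and the study's methods, the authors trimmed reads with cutadapt 1.16, mapped them to mm10 with STAR and counted them in exons, and deposited raw counts per gene. They also deposited expected counts, TPM and FPKM from RSEM for each library. The strand setting of the counting is not given in the sources used here. TPM was not used. Counts were tested here in R 4.3.3 with edgeR 4.0.16 (filterByExpr, TMM, the legacy quasi-likelihood test without a term for the replicate number), with Benjamini-Hochberg adjustment over all 18661 genes that passed the filter. The 1153 rows of transposable elements were left out. Standard errors are the log2 fold change divided by the square root of F. Replicates differed by more than counting noise (chi-square over its degrees of freedom was 22.3 in control and 21.6 in lactate) and were kept apart. Intervals cover 95%.

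Per-library values are given for genes with an unadjusted p under 0.05 and for 13 core enzymes and factors, and the others by fold change or range. In wider lists, genes with an adjusted p under 0.05 were named, or up to 4 with the smallest unadjusted p under 0.05, and 1 result under this rule is not reported here. The genes and lists were chosen with earlier results of these data known. Positions are from GENCODE on GRCm38, where 36 of the 37 identifiers have the version of the tables and Lpin1 another. The fits were also run on simulated counts, drawn without a difference shared by replicate number, so that run cannot decide on a replicate term. Alternatives were DESeq2 1.42.0, RLE factors, library totals, other filters, a replicate block, rounded RSEM expected counts, limma 3.58.1 on log2(FPKM + 1) and log2(FPKM + 0.1) with a mean FPKM above 0.1, and each library left out in turn.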

Additional observations from a re-analysis of the deposited data

How the results depend on the processing

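Of the 13 alternatives, the count of genes called higher went from 1 to 0 with at least 10 counts in every library (Elovl4, adjusted p = 0.0501), with the RSEM expected counts and with limma on either FPKM scale, and was 0 to 1 with a library left out (0 without control replicate 1). The count called lower went from 2 to 0 with the RSEM expected counts and both limma fits, and was 1 to 2 with a library left out (1 without control replicate 1). In each of these refits on all 4 libraries, 5 genes were higher and 8 lower at an unadjusted p under 0.05. At an unadjusted p under 0.05 the counts with a library left out were 3 to 5 higher and 5 to 8 lower, and the median log2 fold change was -0.14 to -0.0100, lowest without control replicate 1. The replicate block gave 9 higher and 12 lower at that p, and 9 higher and 11 lower at an adjusted p under 0.05, with the same 3 genes called. Slc25a20, Acadl, Acadvl and Hadha were among these 9 and Acadm among these 11, each with a change below 2-fold. Nothing in the labels pairs the libraries by replicate number. Over genes, in log CPM, the difference of replicate 1 from replicate 2 in control correlated at 0.56 with the same difference in lactate. In the 5 wider lists, 1 gene was called in each direction, but 2 higher and 2 lower with DESeq2, 4 and 2 without a filter on low counts, 4 and 2 with the replicate block, 0 and 0 with limma on either scale, and 1 to 4 and 1 to 3 with a library left out (3 higher without control replicate 2, 4 without lactate replicate 1, and 3 in each direction without lactate replicate 2).

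The 103 higher and 65 lower calls over all genes became 190 and 168 with DESeq2, 482 and 325 without a filter, 761 and 395 with the replicate block, 27 and 17 with the RSEM expected counts, 0 and 0 with limma (1791 and 1123 at an unadjusted p under 0.05 with log2(FPKM + 1)), and 45 to 502 and 39 to 367 with a library left out, lowest without control replicate 1 and highest without lactate replicate 2. The cause was not tested. The at least 10 filter gave 81 and 44, and library totals alone 108 and 40. The direction turned in 13 of the 36 genes, each with an unadjusted p of 0.391 or more. With limma on log2(FPKM + 1) and log2(FPKM + 0.1) these were Acacb (-0.096, -0.11), Elovl1 (0.047, 0.050), Cpt1c (0.084, 0.087) and Cpt2 (0.29, 0.31). With RSEM expected counts they were Fads3 (-0.0015) and Cpt1c (0.0094). Without a filter they were Elovl6 (-0.0065), Acsl1 (-0.011) and Dgat1 (-0.0028). With library totals alone they were Cpt2 (0.034), Acads (0.042) and Hadhb (0.0030). With a library left out the values ran from -0.092 to 0.31 for Acacb, -0.17 to 0.0098 for Elovl1, -0.13 to 0.28 for Elovl2, -0.11 to 0.15 for Elovl6, -0.30 to 0.52 for Fads3, -0.16 to 0.37 for Acss2, -0.090 to 0.12 for Acsl1, -0.12 to 0.38 for Acsl5, -0.32 to 0.30 for Dgat1, -0.18 to 0.076 for Cpt2, -0.28 to 0.25 for Acads and -0.28 to 0.093 for Hadhb. Arms left with 1 library were assumed to vary like the other arm. Genes at a few reads, such as Ppara, cannot be compared at this depth.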
